A study of Homo sapiens with 24 samples.

Results

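The RNA of 9 enzymes and subunits that make and use S-adenosylmethionine was followed in HSJD-DIPG-007 cells under LLY-283 treatment. HSJD-DIPG-007 is an established patient-derived line of diffuse midline glioma (DMG), with the genotype H3F3A K27M, ACVR1 R206H and PIK3CA MIS in all libraries. LLY-283 inhibits the arginine methyltransferase PRMT5 by binding in its pocket for S-adenosylmethionine, the methyl donor. The 9 members were named by symbol and cover methyl donor supply (MAT2A, MAT2B, MTR, AHCY), methionine salvage (MTAP) and polyamine synthesis (ODC1, AMD1, SRM, SMS). Each matched 1 of the 58676 gene identifiers, and all 9 passed the filter on low counts at day 5. The 24 libraries were 12 of vehicle-treated and 12 of LLY-283-treated cells, with 3 in each treatment group at days 0 and 5, 2 at day 7 and 1 at days 1, 2, 3 and 10. Treated cells received the GI40, the dose that inhibits growth by 40%, and the medium with LLY-283 or vehicle was renewed after 5 days. The cells were 1 line grown as spheroids, and the study calls the libraries of a group technical repeats, so the p-values measure the spread between these libraries and need not include that between cultures.

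S-adenosylmethionine is made from methionine by methionine adenosyltransferase, whose catalytic subunit outside the liver is MAT2A and whose regulatory subunit is MAT2B. Methyl transfer leaves S-adenosylhomocysteine, which AHCY cleaves to homocysteine, and MTR remethylates homocysteine to methionine. In polyamine synthesis ODC1 makes putrescine, AMD1 decarboxylates S-adenosylmethionine, and SRM and SMS add the resulting aminopropyl group to make spermidine and spermine. This leaves methylthioadenosine, which MTAP returns to the methionine salvage pathway. Methylthioadenosine also binds the S-adenosylmethionine pocket of PRMT5, and tumours that have lost MTAP are for that reason studied as sensitive to PRMT5 inhibition. Polyamine synthesis is raised in proliferating cells, and ODC1 is a classical target of the transcription factor MYC.

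Levels are given as CPM, the count of a gene relative to its library total, scaled by TMM, a method that corrects for library size and composition. Sums over marker genes are CPM by library total alone, without TMM. Library totals lay between 13835205 and 23190369 counts. Each member had between 944 and 8324 counts in every library. Libraries of 1 group and day differed by a chi-square of 1.65 to 3.79 per degree of freedom at days 0 and 5, and by 11.2 in the vehicle and 13.4 in the LLY-283 pair of day 7. Day 7 levels of the members are therefore given by repeat number. The chi-square does not tell which of the 2 repeats is unlike the other days. The time course is given with and without the libraries labelled repeat 2, which were chosen for this after seeing the data. The level order, the SDs and the likeness over 24 libraries include them and are not given without them. Of the 10 glioma and oligodendrocyte precursor markers, SOX10 was near 0 (0.0739 to 0.526 CPM in the vehicle libraries of day 5), and the summed level of the list was 8835 to 10530 CPM. Microglial markers summed to at most 1.89 CPM, endothelial markers to 4.28 to 25.1, neuron markers to 46.7 to 75.6 and the 8 fibroblast markers to 130.6 to 331.5. COL1A1, COL1A2, COL3A1 and FN1, which are among the fibroblast markers, summed to 157 CPM in vehicle day 5 repeat 3, to 81.6 in vehicle day 7 repeat 1 and to 81.3 in LLY-283 day 2, against 7.37 to 17.6 CPM in the other libraries. Without vehicle day 5 repeat 3 the day 5 fold changes of the members lay between -0.55 and -0.11 on the log2 scale, with 7 members called in place of 8.

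All 9 members were transcribed in every library, MTAP included. Levels of different genes were compared per length, as CPM per kilobase of the canonical transcript. By the median over 24 libraries the order was SRM at 195 CPM per kb, SMS at 141, AHCY at 139, MAT2A at 131, ODC1 at 127, AMD1 at 46.9, MAT2B at 34.8, MTR at 17.4 and MTAP at 10.7. In the vehicle libraries of day 5, MAT2A (140.9 ± 3.19, SD, n = 3) and SMS (139.5 ± 3.24) did not differ beyond their spread, and every other pair of neighbours in the order of that group had separate ranges. In the LLY-283 libraries of day 5, AHCY (131.3 ± 3.88) and SMS (126.5 ± 4.58) had overlapping ranges. MTAP was lowest in both groups, and the value rests on a canonical transcript of 6.032 kb. MAT2A RNA was 3.62 ± 0.221 times that of MAT2B per length in vehicle libraries of day 5, and 3.38 ± 0.101 times in LLY-283 libraries.

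**Figure D1:**
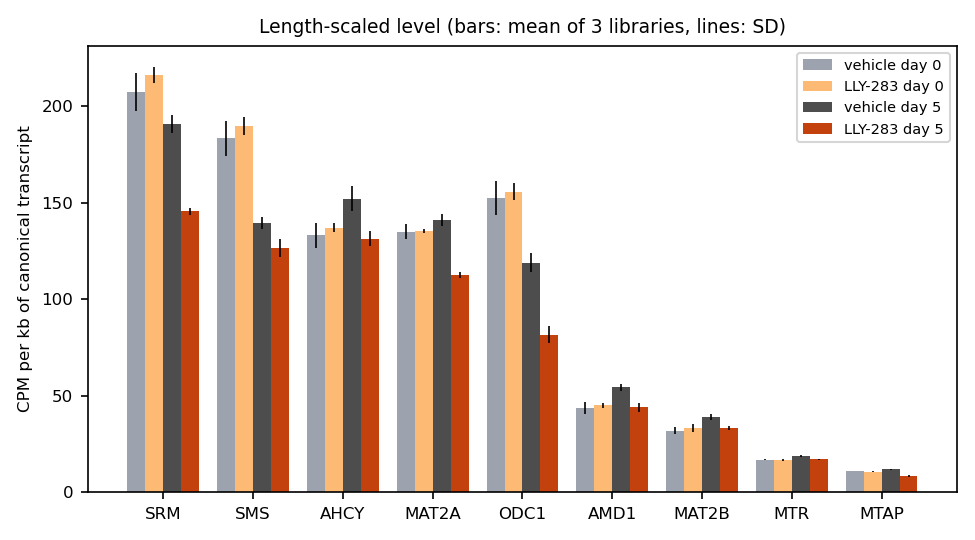
Length-scaled RNA level of the 9 members at days 0 and 5, in CPM per kb of canonical transcript; bars are means of 3 libraries and lines are SDs. SRM was highest and MTAP lowest in all 4 groups, and ODC1 was 118.9 CPM per kb in vehicle and 81.7 in LLY-283 libraries at day 5.

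At day 5 all 9 members were lower in LLY-283 than in vehicle libraries, 8 of 9 significantly (edgeR's quasi-likelihood test, Benjamini-Hochberg adjusted p under 0.01 over 16491 genes). This compares the groups at day 5 and is not a change over time within a group, which is given further on. Of all genes tested, 26.1% were called, 12% as higher and 14.1% as lower. The members' median log2 fold change was -0.28, against a median of 0.02 and a median absolute value of 0.18 over all genes. The difference was largest for ODC1, MTAP and SRM and, among the called members, smallest for MTR, while SMS missed the threshold. The ranges of the groups did not overlap for any of the 9 members, which held for 46.3% of all genes tested. At day 0, 0 of 9 members were called by edgeR and 0 by DESeq2, with edgeR's adjusted p between 0.896 and 0.966, and none of the 9 had an unadjusted p under 0.05. Of all genes, 0.0169% were called at day 0, and 1012 of 17780 had an unadjusted p under 0.05. In bulk RNA, fewer cells that express a gene and less RNA of it per cell cannot be told apart.

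**Figure D2:**
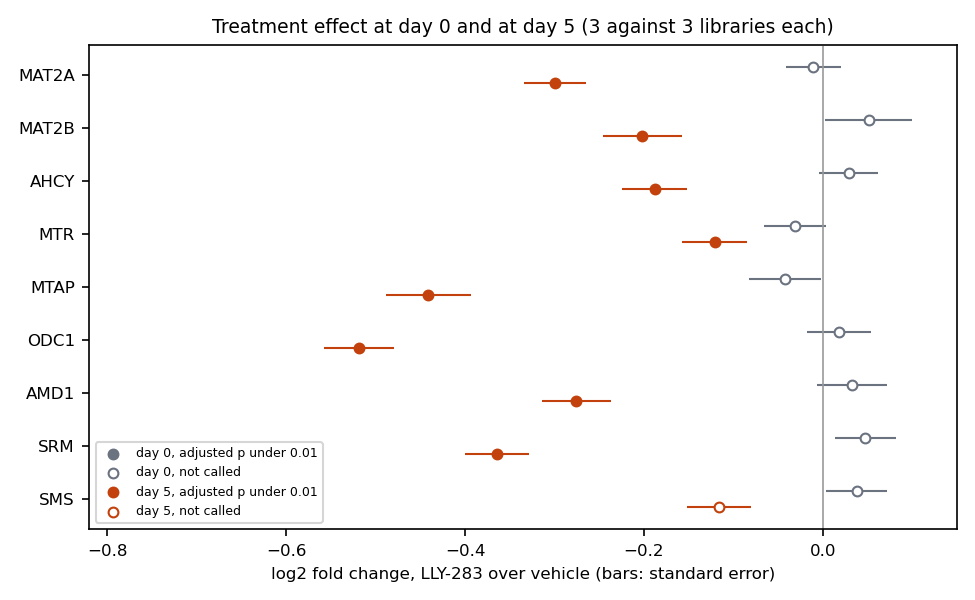
Log2 fold change of LLY-283 over vehicle for each member at day 0 and at day 5, with 3 against 3 libraries on each day; lines are standard errors and filled points have an adjusted p under 0.01. Day 0 values lie around 0 and day 5 values between -0.52 for ODC1 and -0.12 for SMS.

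**Figure D3:**
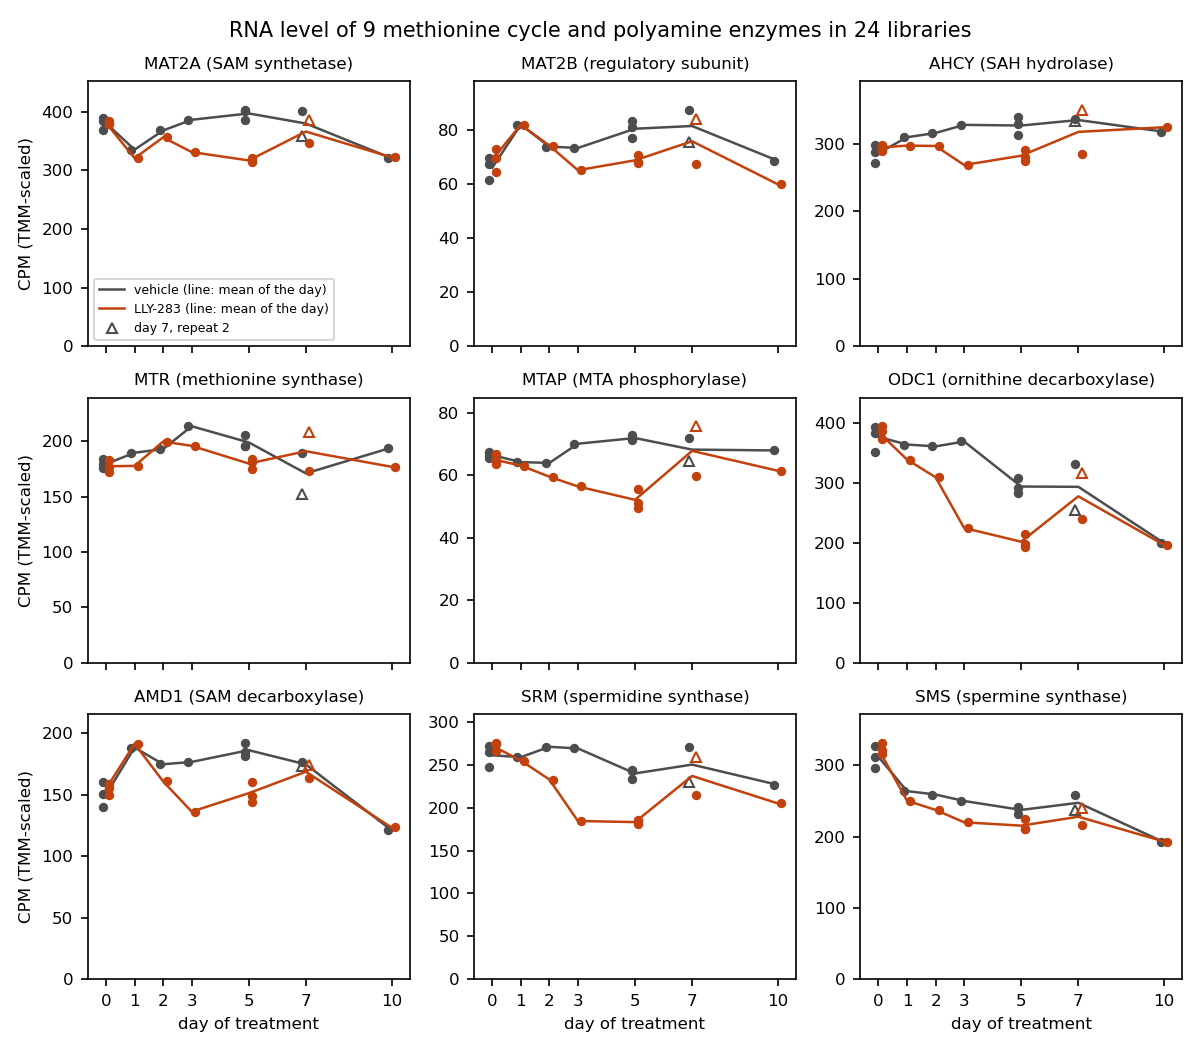
CPM of each member by day of treatment, with 1 point per library, lines through the mean of each treatment group and day, and triangles for the libraries labelled repeat 2 of day 7. At days 3 and 5 every LLY-283 point lies below the vehicle points of the same day, and at day 7 the triangle of LLY-283 lies above that of vehicle in every panel.

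MAT2A, which makes S-adenosylmethionine, was at 386.6, 403 and 401.3 CPM in the vehicle libraries of day 5 and at 315.2, 313.5 and 321.8 CPM in the LLY-283 libraries. The 3 treated libraries lay close together and well below the vehicle range. The log2 fold change was -0.30 ± 0.0347 (SE), or 0.8125 times the vehicle level (adjusted p = 1.01e-07). MAT2A lies at chr2:85539168-85545281 on the plus strand (GRCh38). Its exons overlap GGCX on the other strand, which had 515 to 910 counts, and the library kit keeps strand, but the strand setting of the counting is not given in the sources used here. MAT2A RNA is known to be controlled by METTL16, a methyltransferase that binds hairpins in its 3′ UTR and, when S-adenosylmethionine is short, promotes splicing of the last intron. These sites are shown because they tie the RNA of this member to the metabolite it makes. The canonical transcript was searched on its own strand for TACAGAGAA and TACAGAAAA, the letters of the known sites, which stand in capitals within 29 bases of the GRCh38 plus strand:
MAT2A site 1, chr2:85543802-85543830: tggcgtaggcTACAGAGAAgccttcaagc
MAT2A site 2, chr2:85544589-85544617: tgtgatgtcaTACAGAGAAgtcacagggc
MAT2A site 3, chr2:85544774-85544802: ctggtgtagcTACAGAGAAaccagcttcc
MAT2A site 4, chr2:85544889-85544917: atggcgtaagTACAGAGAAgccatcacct
MAT2A site 5, chr2:85545004-85545032: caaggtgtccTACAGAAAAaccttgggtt
MAT2A site 6, chr2:85545112-85545140: gctggtgtggTACAGAGAAgccagcttgt

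All 6 lie in the 3′ UTR, between 40 and 1350 bases after the stop codon. Of 19701 canonical protein-coding transcripts, 7.86% held at least 1 such match and 2 held 6 or more, and the other 8 members held 0. METTL16 RNA was at 50.13, 50.66 and 45.28 CPM in vehicle and at 49.63, 48.07 and 45.89 CPM in LLY-283 libraries of day 5. These ranges overlapped, with a log2 fold change of 0.00 ± 0.0532 and an adjusted p of 0.969. Gene counts do not separate the spliced from the intron-retaining MAT2A transcript, and splicing was not analysed here.

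MAT2B, the regulatory subunit, was at 83.42, 76.95 and 81.11 CPM in vehicle and at 70.69, 67.69 and 68.03 CPM in LLY-283 libraries of day 5. Its fold change of -0.20 ± 0.0443 on the log2 scale (adjusted p = 0.000619) was smaller than that of MAT2A in size, although the difference between these genes was not tested. AHCY, which removes the S-adenosylhomocysteine that inhibits methyltransferases, was at 339.1, 329.3 and 312.4 CPM in vehicle and at 291.4, 275 and 280.4 CPM in LLY-283 libraries. Its log2 fold change was -0.19 ± 0.0363 (adjusted p = 0.00015). MTR, the methionine synthase, was at 205.3, 195.7 and 195.7 CPM in vehicle and at 183.9, 174.6 and 180.9 CPM in LLY-283 libraries. The gap between its groups was narrow, and the log2 fold change of -0.12 ± 0.0365 was at the threshold (adjusted p = 0.00993). The MTR call was lost when any 1 of vehicle repeats 1, 2 and 3 or LLY-283 repeats 2 and 3 of day 5 was left out, with adjusted p between 0.0126 and 0.0739. It was also lost with DESeq2 (adjusted p = 0.0112), with library size alone (0.0348), without a filter on low counts (0.0278) and with 22 libraries in 1 fit (0.145), in all under 9 of 15 alternatives.

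MTAP, the phosphorylase that clears methylthioadenosine, was at 72.74, 71.62 and 71.28 CPM in vehicle and at 55.7, 49.65 and 50.98 CPM in LLY-283 libraries of day 5. The vehicle libraries were nearly equal and all LLY-283 libraries were lower. The log2 fold change was -0.44 ± 0.0477, or 0.7366 times the vehicle level (adjusted p = 2.96e-08). MTAP lies at chr9:21802636-21937651 on the plus strand. Of the genes whose exons overlap it, ENSG00000264545 on the same strand had 0 counts in every library, ERVFRD-3 on the same strand at most 7, and ENSG00000265194 on the other strand between 8 and 35.

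ODC1, the ornithine decarboxylase that opens polyamine synthesis, had the largest difference among the members. It was at 308, 292.3 and 283.2 CPM in vehicle and at 215.1, 198.7 and 193 CPM in LLY-283 libraries of day 5. The highest treated library was far below the lowest vehicle library. The log2 fold change was -0.52 ± 0.039, or 0.698 times the vehicle level (adjusted p = 4.12e-11), and ODC1 ranked 73 of 16491 genes by p. AMD1, the S-adenosylmethionine decarboxylase, was at 181.6, 184.3 and 192.2 CPM in vehicle and at 159.9, 149.2 and 144.2 CPM in LLY-283 libraries, a log2 fold change of -0.28 ± 0.0386 (adjusted p = 2e-06).

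SRM, the spermidine synthase, was at 243.1, 233.2 and 243.7 CPM in vehicle and at 185.4, 183.4 and 180.8 CPM in LLY-283 libraries of day 5. The spread within each group was small beside the gap between them. The log2 fold change was -0.36 ± 0.0354, or 0.7769 times the vehicle level (adjusted p = 4.27e-09). SMS, the spermine synthase of the following step, was at 231.2, 241.1 and 240.4 CPM in vehicle and at 224.5, 210.8 and 211.1 CPM in LLY-283 libraries. Its groups were separated by a small gap, and its log2 fold change of -0.12 ± 0.0357 was not called (adjusted p = 0.0116). The call was gained without vehicle repeat 1 (adjusted p = 0.00698) and without LLY-283 repeat 1 of day 5 (adjusted p = 0.00138). Without 1 library in turn, edgeR's adjusted p for SMS reached up to 0.0704, with log2 fold changes between -0.15 and -0.105. Per length, SRM RNA was 1.37 ± 0.0569 times that of SMS in vehicle and 1.15 ± 0.0304 times in LLY-283 libraries of day 5.

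The promoters of ODC1 and SRM are shown because both hold CACGTG, the palindromic E-box that MYC binds with MAX, in the RefSeq window from 250 bases before to 50 after a gene start. The sequences are from RefSeq (GRCh38.p14), 5′ to 3′ along the minus strand of each gene, with CACGTG in capitals, and the carrier gene SLC7A5 is added for its values given further on:
ODC1, chr2:10447998-10448068: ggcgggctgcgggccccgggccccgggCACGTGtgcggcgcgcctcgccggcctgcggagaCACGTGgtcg
SRM, chr1:11060185-11060244: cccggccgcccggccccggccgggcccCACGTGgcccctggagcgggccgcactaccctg
SLC7A5, chr16:87869605-87869664: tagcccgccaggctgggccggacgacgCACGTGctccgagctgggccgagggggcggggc

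In ODC1 the matches began at -29 and 6 from an alternative RefSeq start, in the first intron of the canonical transcript. The SRM match began at -199 and the SLC7A5 match at -130 from the start. CACGTG was present in 2 of the 16 windows of members (12.5%), those of ODC1 and SRM, and in 7.26% of all 35116 windows. CACGTG was not counted for the other carriers or the other pathway lists, and SLC7A5 was picked for its values. Whether the motif goes with lower RNA was not tested. A match is a description of the sequence and no evidence of binding.

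MYC RNA was at 467.2, 441.2 and 460.9 CPM in vehicle and at 363.4, 352.2 and 353.5 CPM in LLY-283 libraries of day 5, a log2 fold change of -0.33 ± 0.0344 (adjusted p = 1.41e-08). At day 0 it was at 249.9, 252 and 267.7 CPM in vehicle and at 242.6, 232.6 and 234.6 CPM in LLY-283 libraries. The MYC ranges lay higher at day 5 than at day 0 in both treatment groups. Those of ODC1 lay lower at day 5 in both, and a link between MYC and ODC1 RNA was not tested. ATF4, the transcription factor of the amino acid stress response, was lower in LLY-283 libraries of day 5 by 0.15 ± 0.0351 on the log2 scale (adjusted p = 0.00125). MAX was not called (-0.08 ± 0.0502, adjusted p = 0.258), nor was MYCN (0.32 ± 0.214, adjusted p = 0.256), which was at no more than 3.15 CPM at day 5. Of the 5 known regulators, 2 were called lower in LLY-283 than in vehicle libraries of day 5, 0 higher, and 3 did not pass the test. Of all genes, 14.1% were called lower.

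Change over time in culture was tested within each treatment group in a shared model of the 12 libraries of days 0 and 5, in which 18369 genes were tested. These libraries are those of the day 5 and day 0 comparisons, so the values are not independent of them. In vehicle libraries 7 of 9 members were called, 4 higher and 3 lower at day 5 than at day 0, where 37.6% of all genes were called, 22.1% as higher and 15.4% as lower. AMD1 (0.31 ± 0.0426), MAT2B (0.28 ± 0.0484), AHCY (0.19 ± 0.0362) and MTR (0.14 ± 0.036) rose on the log2 scale. SMS (-0.40 ± 0.0366), ODC1 (-0.36 ± 0.0409) and SRM (-0.13 ± 0.035) fell. MAT2A (0.06 ± 0.0322, adjusted p = 0.143) and MTAP (0.11 ± 0.0431, adjusted p = 0.035) were not called. The supply enzymes other than MAT2A thus rose in culture, while 3 of the 4 polyamine enzymes fell. The smallest of these calls were the least stable, as MTR was lost without vehicle day 0 repeat 2 or day 5 repeat 1 (adjusted p = 0.0115 and 0.0128), and SRM without vehicle day 0 repeats 2 or 3 or day 5 repeats 1 or 2 (adjusted p up to 0.0484). The libraries of days 0 and 5 also carry separate runs of library numbers in the labels, and this numbering and the day cannot be told apart.

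In LLY-283 libraries 5 of 9 members fell from day 0 to day 5, 0 rose and 4 were not called. Of 18369 genes tested, 7257 were called, 3098 of them as lower (16.9% of all genes) and the rest as higher. ODC1 went from 395.3, 373.3 and 387.8 CPM at day 0 to the day 5 values given above, a log2 fold change of -0.89 ± 0.0414, or 0.5381 times the day 0 level (adjusted p = 2.45e-16). SMS fell from 332.1, 316.1 and 321.1 CPM (-0.55 ± 0.0363, adjusted p = 2.2e-13) and SRM from 274.7, 276 and 266.3 CPM (-0.53 ± 0.0351, adjusted p = 1.75e-13). MTAP (-0.29 ± 0.0438) and MAT2A (-0.23 ± 0.0323) fell less. MAT2B (0.03 ± 0.048), AHCY (-0.02 ± 0.0361), MTR (0.06 ± 0.0358) and AMD1 (0.00 ± 0.0425) did not pass the test, with adjusted p between 0.195 and 0.977.

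The change from day 0 to day 5 differed between the treatment groups for 7 of 9 members, each with the lower value in LLY-283 libraries, and 8.15% of all genes were called in that direction. The difference of changes was -0.53 ± 0.0581 for ODC1 (adjusted p = 2.01e-07), -0.41 ± 0.0495 for SRM (adjusted p = 6.4e-07) and -0.40 ± 0.0615 for MTAP (adjusted p = 2.22e-05) on the log2 scale. These members differed most, and they show separate patterns in vehicle libraries, where ODC1 and SRM fell and MTAP was not called. AMD1 differed by -0.31 ± 0.0601 and MAT2A by -0.29 ± 0.0456. In AMD1 the vehicle level rose to day 5 and no change was detected with LLY-283, whereas MAT2A fell with LLY-283 and no change was detected in vehicle. MAT2B (-0.25 ± 0.0681, adjusted p = 0.00729) and AHCY (-0.21 ± 0.0512, adjusted p = 0.00255) were also called. The MAT2B call was lost under 11 of 21 alternatives, among them DESeq2 (adjusted p = 0.0104) and library size alone (0.0142). Leaving out vehicle day 0 repeat 1, vehicle day 5 repeats 1 or 3, LLY-283 day 0 repeats 1 or 2 or LLY-283 day 5 repeats 2 or 3 also ended it, with adjusted p up to 0.0351. The AHCY call was lost without vehicle day 5 repeat 1, LLY-283 day 0 repeat 3 or LLY-283 day 5 repeat 2, with adjusted p up to 0.0137. MTR (-0.09 ± 0.0508, adjusted p = 0.23) and SMS (-0.15 ± 0.0515, adjusted p = 0.032) were not called. The SMS call was gained without vehicle day 0 repeat 3 (adjusted p = 0.00954) or LLY-283 day 5 repeat 1 (adjusted p = 0.00997). Without 1 library in turn, edgeR's adjusted p for SMS reached up to 0.0954.

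**Figure D4:**
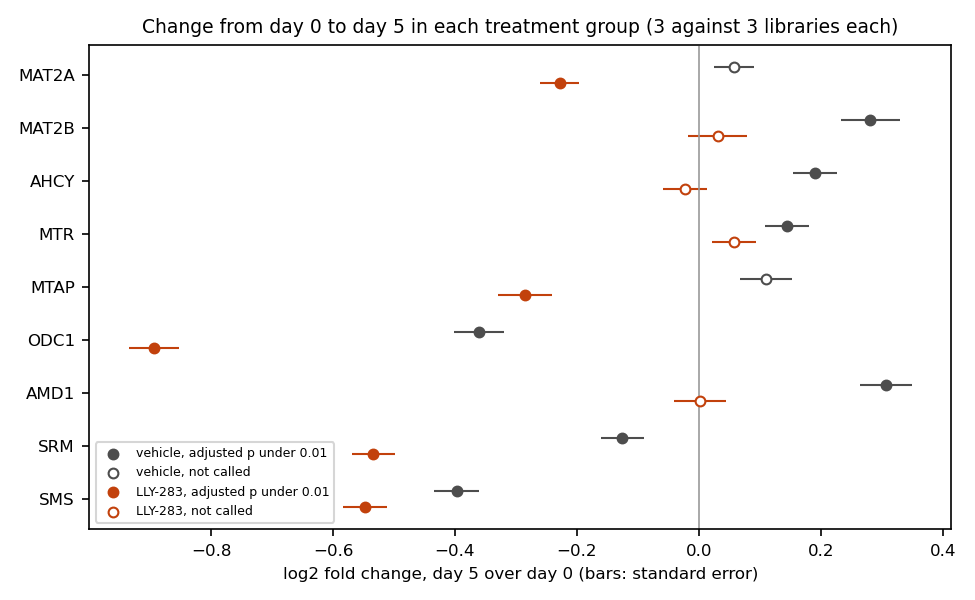
Log2 fold change from day 0 to day 5 in vehicle and in LLY-283 libraries, with 3 against 3 libraries for each point; lines are standard errors and filled points have an adjusted p under 0.01. ODC1 moved from -0.36 in vehicle to -0.89 with LLY-283, and AMD1 from 0.31 to 0.00.

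The days between had 1 library per treatment group and allow no test of their own. At day 1 the members differed little, with 8 of 9 lower in LLY-283 and a median difference of -0.06 on the log2 scale. Of all genes, 52.3% were lower. At day 2, 7 of 9 were lower with a median of -0.10, while 50.7% of all genes were lower. ODC1 was then at 361.6 CPM in vehicle and 310 in LLY-283. At day 3 all 9 were lower with a median of -0.29, while 50.9% of all genes were lower. ODC1 was then at 369.8 CPM in vehicle and 225.2 in LLY-283, and SRM was at 269.2 and 184.5 CPM. ODC1 in vehicle libraries lay between 352.8 and 394.8 CPM through day 3 and was lower at day 5. The run of library numbers in the labels also changes between days 3 and 5, so this step and the numbering cannot be told apart. The largest ODC1 gap between libraries of the same day and repeat number fell on day 3.

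At day 7 the pair labelled repeat 1 showed all 9 members lower in LLY-283, with a median difference of -0.26 on the log2 scale. Of all genes, 50.2% were lower. ODC1 was at 333 CPM in vehicle and 239.7 in LLY-283. The pair labelled repeat 2 showed all 9 higher in LLY-283, with a median of 0.15 and values from 0.01 for AMD1 to 0.45 for MTR. In it 51% of all genes were lower. In that pair ODC1 was at 255.1 CPM in vehicle and 316.6 in LLY-283, and MTAP at 64.56 and 75.65 CPM. Matched by repeat number, the libraries thus point in opposite directions for every member, but repeat numbers did not pair the samples at days 0 and 5. With the matching crossed, ODC1 was lower in LLY-283 in both matches. MTAP was then higher in 1 of them, at 71.79 CPM in vehicle repeat 1 and 75.65 in LLY-283 repeat 2. So was AHCY, at 337.1 and 350.1 CPM in the same libraries. MTR was higher in LLY-283 in both matches, at 189.2 against 208.6 CPM and at 152.7 against 173.3 CPM. MAT2A, MAT2B, SRM, SMS and AMD1 were lower in LLY-283 in both. The mean of ODC1 was 294 CPM in vehicle and 278.2 in LLY-283, and no test was run on day 7 alone. Whether the treatment labels of the 2 libraries of repeat 2 were exchanged is not known from the sources used here and was not tested. With exchanged labels every repeat 2 difference would change sign. The study describes its samples of the later days as clustering mainly by treatment group. LLY-283 day 7 repeat 1 carries library number 10 and repeat 2 carries number 9. In the other groups with repeats, the library number rises with the repeat number. Numbers 9 and 10 both belong to libraries labelled LLY-283, and the vehicle libraries of day 7 carry 7 and 8. What this order means for the treatment labels was not tested. At day 10, 5 of 9 members were lower in LLY-283 with a median of -0.02, and 50% of all genes were lower. ODC1 was then at 200.1 CPM in vehicle and 197 in LLY-283, SMS at 192.3 and 193.2, and AMD1 at 121 and 123.2. For ODC1, SMS, AMD1, MAT2A and SRM the vehicle library of day 10 was the lowest of the vehicle series. The day 10 levels of ODC1 were within the range that LLY-283 libraries had at day 5, and those of SMS and AMD1 were below it.

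The time course test asked whether the treatment difference varied over days 0 to 7. In 22 libraries edgeR called 0 of 9 members, where 0.0289% of all genes were called. The smallest adjusted p was 0.0695 for SRM, and 5 members had an unadjusted p under 0.05 (SRM, AMD1, MTAP, MAT2A and ODC1). DESeq2 called 2 members, SRM and ODC1, and 180 genes in all. Without both libraries labelled repeat 2 of day 7, edgeR called 7 of 9 members and 2002 genes in all, with the smallest adjusted p for ODC1 (1.4e-06). MTR and SMS were the members not called in that fit. Without all day 7 libraries 6 members and 1984 genes in all were called.

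The other genes around the pathway are described by list at day 5. For these lists, fell and rose mean lower and higher in LLY-283 than in vehicle libraries of day 5. Of all genes tested at day 5, 26.1% were called, 12% as higher and 14.1% as lower, and the counts of each list stand beside these shares. In the methionine cycle and one-carbon supply, 14 of 16 genes were tested, 6 fell, 2 rose and 6 did not pass the test, with a median log2 fold change of -0.01. The mitochondrial folate enzymes MTHFD2 (-0.46 ± 0.0433, adjusted p = 4.1e-09) and MTHFD1L (-0.40 ± 0.0552) fell, as did the thymidylate synthase TYMS (-0.30 ± 0.0356). AHCYL2, an AHCY-like protein, rose (0.33 ± 0.0478, adjusted p = 3.57e-06). Of 8 other users of S-adenosylmethionine, 3 fell and 2 rose, with a median of -0.02. NNMT, which methylates nicotinamide, was at 21.31, 19.32 and 19.58 CPM in vehicle and at 38.03, 41.13 and 35.59 CPM in LLY-283 libraries of day 5. It rose by 0.95 ± 0.0681 on the log2 scale (adjusted p = 1.58e-11), the largest change among the called genes of these lists. GAMT, which makes creatine, fell (-0.30 ± 0.0511), as did PCMT1 and ICMT. Of 5 genes of methionine salvage downstream of MTAP, ADI1 fell (-0.23 ± 0.049, adjusted p = 0.00039) and 4 did not pass the test, with a list median of -0.08.

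Of 15 genes of polyamine catabolism, control and transport, 13 were tested, 3 rose, 2 fell and 8 did not pass the test, with a median of 0.02. Of all genes, 12% were called higher and 14.1% lower. SAT1, the acetyltransferase that marks spermidine and spermine for breakdown or export, was at 70.13, 73.4 and 72.91 CPM in vehicle and at 90.23, 89.62 and 89.37 CPM in LLY-283 libraries of day 5. The LLY-283 libraries were all higher, with a log2 fold change of 0.34 ± 0.042 (adjusted p = 2.69e-07). SAT2 (0.50 ± 0.0668) also rose, and so did SMOX, the spermine oxidase (adjusted p = 0.00514), which is named here after its values were seen. OAZ1, the antizyme that directs ODC1 protein to degradation, fell (-0.29 ± 0.0341, adjusted p = 1.67e-07), and so did AZIN1, the inhibitor of antizyme (-0.18 ± 0.04). At the RNA level the called synthesis genes ODC1, AMD1 and SRM were thus lower in LLY-283 libraries, while SMS was not called. SAT1, SAT2 and SMOX were the genes of this list called higher, and 8 of its 13 tested genes did not pass the test. Synthesis and catabolism genes were not compared by a test. ODC1 RNA per length was 2.62 ± 0.235 times that of SAT1 in vehicle libraries of day 0, 1.73 ± 0.114 times in vehicle libraries of day 5, and 0.955 ± 0.0493 times in LLY-283 libraries of day 5. The ranges of this ratio did not overlap between these 3 groups, while that of LLY-283 at day 0 (2.58 ± 0.104) overlapped vehicle at day 0. Between the day 5 groups this follows from the separate ranges of ODC1 and SAT1 given above and is no further result. At day 7 the ratio ranged from 1.47 to 1.92 in the vehicle libraries and from 1.17 to 2.06 in those labelled LLY-283. These ranges are not matched by repeat number. At day 10 it was 0.962 in vehicle, within the range of the LLY-283 libraries of day 5, and 0.869 in LLY-283.

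Hypusination, the use of spermidine to modify the translation factor EIF5A, had 4 genes tested, of which EIF5A fell (-0.33 ± 0.0361, adjusted p = 4.42e-08), DHPS rose (0.16 ± 0.0412, adjusted p = 0.00256) and 2 did not pass the test. The list median was -0.21. Of 6 carriers of methionine and other amino acids, 3 fell and 3 did not pass the test, with a median of -0.18, where 14.1% of all genes were called lower. SLC7A5, the large neutral amino acid carrier that brings in methionine, was at 371.7, 343.7 and 350 CPM in vehicle and at 247.5, 238.8 and 238.1 CPM in LLY-283 libraries of day 5. It fell by 0.53 ± 0.0361 on the log2 scale (adjusted p = 5.46e-12), about as much as ODC1. Its partner chain SLC3A2 (-0.23 ± 0.0395) and the glutamine carrier SLC1A5 (-0.42 ± 0.0369) fell as well.

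**Figure D5:**
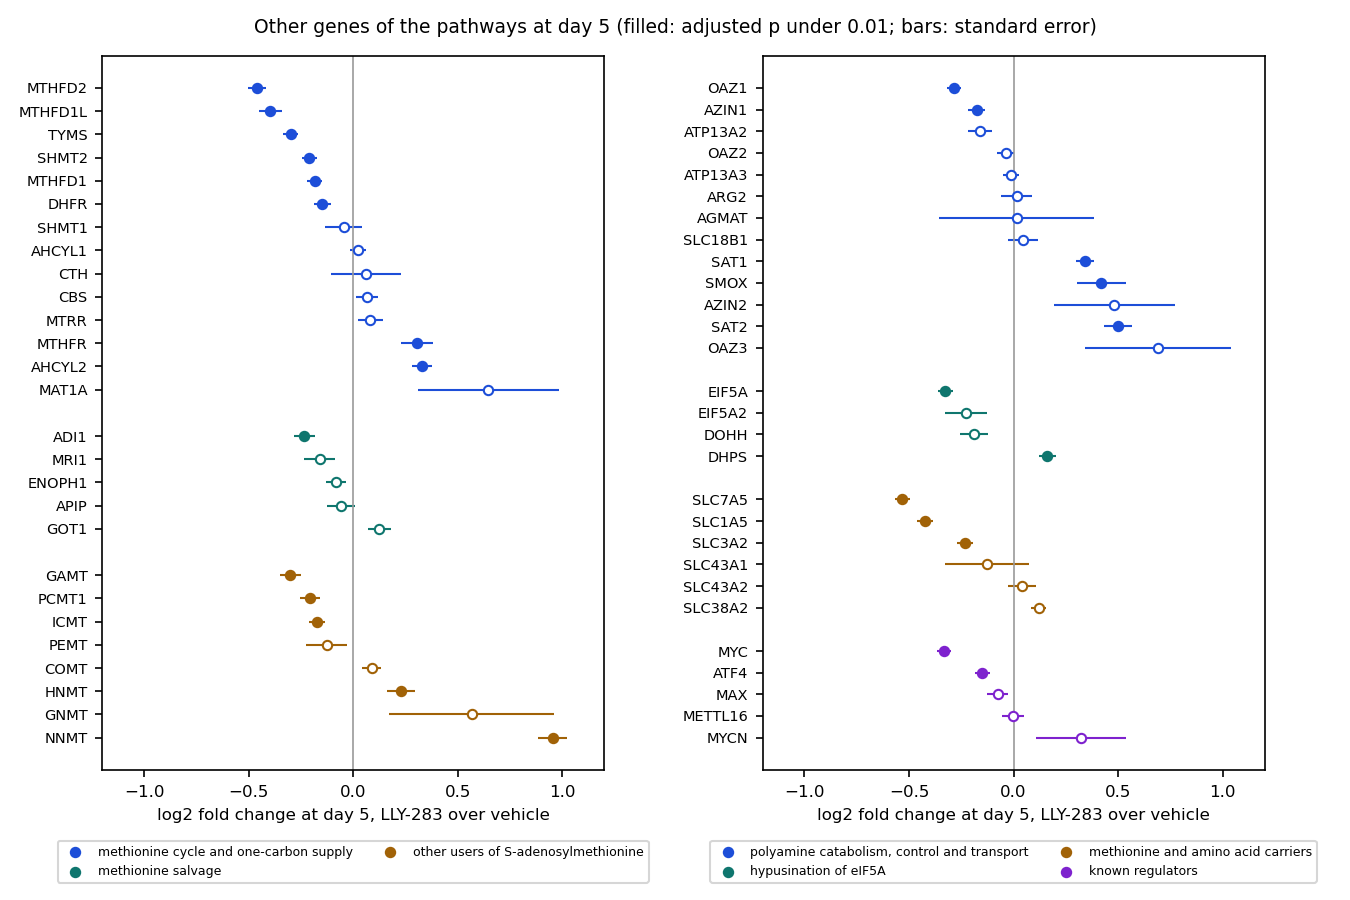
Log2 fold change of LLY-283 over vehicle at day 5 for the tested genes around the pathway, grouped by list, with 3 against 3 libraries; lines are standard errors and filled points have an adjusted p under 0.01. Called points lie on both sides of 0 in the one-carbon, S-adenosylmethionine, polyamine and hypusination lists, and below 0 in the salvage, carrier and regulator lists.

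Members varied to different degrees over the 24 libraries. The SD of log2 CPM was 0.365 for ODC1, 0.235 for SMS and 0.204 for SRM, and between 0.107 for MTR and 0.186 for AMD1 for the other 6. Of 20876 genes compared by the root mean square difference of centred log2 CPM over 24 libraries, those nearest to ODC1 were THOC6 (0.0795), POLR1G (0.0864) and TIPIN (0.107). The genes nearest to SMS were HNRNPDL (0.0487), MPDU1 (0.0655) and GNG4 (0.0717), and those nearest to SRM were ATP5MC1 (0.0644), POLE3 (0.0658) and MRPL9 (0.0688). None of these is on the pathway lists. The libraries compared share their culture and day, so the likeness is a description.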

How the data were processed

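RNA of HSJD-DIPG-007 cells was sequenced in 24 libraries with a strand-keeping kit for polyadenylated RNA. The authors trimmed the reads, pseudoaligned them to the human transcriptome (hg38) with kallisto, and deposited whole-number estimated counts for each gene, not normalized for library size. The kallisto version is not given in the sources used here. All 24 columns were used. Gene positions and transcript lengths came from GENCODE on GRCh38.

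These counts were tested in R 4.3.3 with the robust quasi-likelihood test of edgeR 4.0.16 after TMM scaling. Genes of low count were removed by group (filterByExpr), p-values were adjusted over all genes tested (Benjamini-Hochberg), and a gene was called at an adjusted p under 0.01. CPM, except in sums over marker genes, used TMM factors over 24 libraries, which lay between 0.958 and 1.04. SEs are the log2 fold change over the square root of F. Days 0 and 5 were tested alone, and the change over time in their 12 libraries together. The time course used the 22 libraries of days 0 to 7, since day 10 has 1 library a group and is not in the study's methods. DESeq2 1.42.0, which the authors used, was an alternative, as were its size factors, library size alone, other filters, an adjusted p under 0.05, a replicate block, other sets of libraries and leaving out each library.

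The members and lists were chosen with earlier results of these data known. Named are all members, all tested regulators, at most the 4 genes of smallest p among those called in each other list, SMOX in addition, and the 3 genes nearest to each of the 3 most variable members. Pseudogenes of the members had at most 18 counts in any library, and ENSG00000250917, which overlaps AHCY, had at most 6.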

Additional observations from a re-analysis of the deposited data

Results flagged for a closer look

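The change from day 0 to day 5 differed between LLY-283 and vehicle libraries for 7 of 9 members, by the interaction contrast of edgeR's quasi-likelihood test over 12 libraries. By this contrast 2742 of 18369 genes were called, and 8.15% of all genes were called with the lower value in LLY-283 libraries. On the log2 scale, LLY-283 less vehicle, the difference was -0.533 for ODC1, -0.409 for SRM and -0.396 for MTAP. It was -0.305 for AMD1 (adjusted p = 0.000421) and -0.286 for MAT2A (adjusted p = 3.18e-05). For MAT2B it was -0.25 and for AHCY -0.214. The fitted changes over time had opposite signs in the treatment groups for MAT2A, MTAP and AHCY, though not each was called, and ODC1 and SRM fell in both. These differences rest on the same libraries as the day 5 comparison and add no independent evidence to it. With all 22 libraries in 1 fit, 0 of 9 members and 51 genes in all were called by this contrast. No group had 4 or more libraries, so single libraries were not tested as outliers.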

How the results depend on the processing

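No called value of a member changed direction under an alternative, but which members were called depended on the libraries entered. In 7 of 45 pairs of member and comparison, none called in any fit (lowest adjusted p = 0.069), the fitted fold change crossed 0, between -0.0486 and 0.0829 on the log2 scale. These were MAT2A, AHCY, ODC1 and AMD1 at day 0, MAT2A over time in vehicle, and MAT2B and AMD1 over time with LLY-283. With all 22 libraries in 1 fit, calls at day 5 went from 8 to 5 members (AHCY, MAT2B and MTR lost) and from 4304 to 2042 genes. In that fit, which holds the day 7 libraries, vehicle calls from day 0 to day 5 went from 7 to 3 members and from 6899 to 5095 genes. Calls of the difference of changes went from 7 to 0 members and from 2742 to 51 genes. For those 7 members edgeR's adjusted p was between 0.0117 and 0.0898. With the 18 libraries of days 0 to 5 in 1 fit, chosen after seeing the data, no count of called members moved by over 1.5 times. At an adjusted p under 0.05 the difference of changes was called in 4452 genes.

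At day 0 the 3 calls over all genes became 8 at an adjusted p under 0.05, 56 without a filter, 6 with the replicate block, 0 in the 22-library fit and 5 in the 18-library fit. Without 1 library in turn, they ranged from 0 to 17, and calls of members stayed at 0.

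In the time course the 6 calls over all genes became 30 at an adjusted p under 0.05, 180 with DESeq2, 10 with its size factors, 11 with library size alone, 1217 without a filter, 10 with at least 10 counts in every library, 1 with the replicate block, 1984 without day 7 and 2002 without both repeat 2 libraries of day 7. The 0 members became 2 with DESeq2, 3 without a filter, 6 without day 7 and 7 without both repeat 2 libraries, the last chosen after seeing the data. Without 1 library in turn the time course gave 0 to 894 genes and 0 to 4 members. The cause of these differences was not tested. Leaving out the only library of a day takes that day out of the test.

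Without 1 library in turn, members called ranged from 7 to 9 at day 5, from 5 to 7 for vehicle over time, from 5 to 5 for LLY-283 over time and from 5 to 8 for the difference of changes. Over all genes these ranges were 3193 to 4423, 5902 to 7042, 6391 to 7391 and 2126 to 3000. Of 135 member values at day 5 under alternatives, 120 kept their side of the threshold, 11 lost it and 4 gained it. The day 5 median of the members lay between -0.283 and -0.248 on the log2 scale across scalings, and no scaling moved the median of all genes by more than 0.0665.

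The repeat numbers do not pair the samples, since deviations of same-numbered libraries correlated between -0.0917 and 0.0565. With the replicate block, the MAT2B difference of changes lost its call (adjusted p = 0.0143), and no member count moved by over 1.5 times. Days 1, 2, 3 and 10 have 1 library a group, so their differences have no replicate check.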
